A study of Mus musculus with 4 samples.

Results

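The *Rhox* (reproductive homeobox) genes are a cluster of homeobox genes on the X chromosome, and 5 of them, *Rhox1*, *Rhox5*, *Rhox8*, *Rhox10* and *Rhox13*, were followed among the 54920 genes listed for each library. These 5 were picked by gene symbol, with their *Cnot3*-cKO and control values already known, so their levels and differences are described here and carry no test. A further 37 *Rhox* genes were listed, which brings the cluster to 42. RNA came from ID4-EGFP+ cells, sorted by FACS from neonatal testis at postnatal day 8 to enrich for spermatogonial stem cells (SSCs). All mice carried *Cnot3*flox/flox and *Id4-eGfp* and received 4OHT, the active form of tamoxifen, from day 1 to day 3. The *Cnot3*-cKO mice (2 libraries) also carried *Ddx4*-creER, a recombinase driven from a germ cell gene, so that the deletion was aimed at germ cells. The control mice (2 libraries) had no *Ddx4*-creER, and the labels call them wild-type. Whether a library pooled several pups was not stated in the sources used here, so the spread between libraries may be partly technical.

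RHOX proteins are DNA-binding transcription factors of the homeodomain class, and their genes are expressed mainly in testis, epididymis, ovary and placenta. Within the testis the family divides by cell type. *Rhox5* (once called *Pem*) and *Rhox8* are known from Sertoli cells, the somatic nurse cells of the seminiferous tubule, where androgen drives *Rhox5*. *Rhox10* and *Rhox13* are known from germ cells, *Rhox10* from undifferentiated spermatogonia and the forming SSC pool and *Rhox13* from spermatogonia that respond to retinoic acid. *Rhox1* was given no cell type here.

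Libraries held 22192964 to 43378493 counted reads, the 2 controls being the deeper pair. *Cnot3* itself had 58.6 and 50.2 CPM (reads scaled to the TMM-adjusted size of each library) in controls, against 19.2 and 19.9 CPM in *Cnot3*-cKO cells. This was a log2 fold change of -1.48 (standard error 0.13, edgeR adjusted p = 1.48e-05), and counts per gene do not separate deleted from intact alleles. In each library 3 reads, taken as the floor of detection, corresponded to 0.0712 to 0.132 CPM. A gene was called at an edgeR adjusted p under 0.01 with a fold change above 2. By this rule 4.76% of the 23952 tested genes were called, 4.03% higher and 0.735% lower. Of the 13 marker genes listed for all germ cells, 12 were tested and 0 were called with edgeR or DESeq2 (unadjusted p under 0.05 in 5, all lower), with summed levels of 5793 and 6221 CPM in controls against 5196 and 5380 CPM in *Cnot3*-cKO cells. Sertoli cell markers were also present in the sort, at summed levels of 468 and 474 CPM in controls against 1450 and 1454 CPM in *Cnot3*-cKO libraries.

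The 42 genes lay between 37213804 and 38306028 on the X chromosome of GRCm38 (also called mm10), a stretch of 1.09 Mb. *Rhox1* stood first, at 37213804 to 37222258 on the reverse strand. *Rhox5* (37804842 to 37808876, forward strand) and *Rhox8* (37874778 to 37878944, reverse strand) stood near each other in the middle. *Rhox10* (38066475 to 38071691) and *Rhox13* (38121219 to 38129967) lay on the forward strand towards the far end. Their exons in GENCODE M21 summed to 883 bases in *Rhox1*, 754 in *Rhox5*, 1204 in *Rhox8*, 763 in *Rhox10* and 876 in *Rhox13*. None overlapped an exon of another gene in that annotation. The reads were counted on GENCODE M24, whose exons were not compared. Sequence set the members apart from most of the cluster. No stretch of 50 bases in the annotated transcripts of *Rhox1*, *Rhox5*, *Rhox10* or *Rhox13* occurred in a transcript of any other gene, and in *Rhox8* 4.61% of stretches did, all of them in genes outside the cluster. By contrast 44.7% to 100% of the stretches of the 8 *Rhox2* copies were shared with another *Rhox* gene.

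RefSeq promoter windows (build GRCm38.p6) were matched for 4 of the 5 members, and the 250 bases before each start are printed 5′ to 3′ so that the letters behind the motif matches can be seen. Capitals mark matches, on either strand, to CCGGAAG (the core bound by ETS factors such as GABP), AACAAT (a core of SOX factors) and AGGTCA (a half-site of nuclear receptors such as those of retinoic acid).
*Rhox5*, chrX:37754358-37754607, forward strand: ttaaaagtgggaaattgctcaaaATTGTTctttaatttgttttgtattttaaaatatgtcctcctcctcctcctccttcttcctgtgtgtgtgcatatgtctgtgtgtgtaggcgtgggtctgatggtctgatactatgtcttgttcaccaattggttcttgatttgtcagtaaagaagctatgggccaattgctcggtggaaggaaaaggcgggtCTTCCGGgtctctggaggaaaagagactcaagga
*Rhox1*, chrX:37222259-37222508, reverse strand: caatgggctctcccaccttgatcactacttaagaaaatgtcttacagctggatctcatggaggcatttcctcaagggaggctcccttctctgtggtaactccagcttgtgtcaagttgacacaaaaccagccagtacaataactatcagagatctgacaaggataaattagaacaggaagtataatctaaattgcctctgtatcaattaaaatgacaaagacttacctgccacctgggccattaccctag
*Rhox10*, chrX:38066225-38066474, forward strand: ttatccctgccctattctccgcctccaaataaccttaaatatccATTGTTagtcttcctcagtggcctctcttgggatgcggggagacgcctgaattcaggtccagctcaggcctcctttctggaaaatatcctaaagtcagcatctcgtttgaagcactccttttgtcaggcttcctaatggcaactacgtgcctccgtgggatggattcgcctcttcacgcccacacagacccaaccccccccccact
*Rhox13*, chrX:38120590-38120839, forward strand: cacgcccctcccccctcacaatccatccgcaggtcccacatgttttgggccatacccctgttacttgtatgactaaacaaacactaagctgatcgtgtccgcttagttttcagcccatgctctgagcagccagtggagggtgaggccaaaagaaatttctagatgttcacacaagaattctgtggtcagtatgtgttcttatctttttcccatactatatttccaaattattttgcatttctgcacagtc

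The *Rhox5* window held the ETS core, 34 bases before the start and a SOX core further upstream, 227 bases before it. This start lies 50234 bases upstream of the one annotated in GENCODE M21, and *Rhox5* is known to have a distal and a proximal promoter. Counts per gene cannot say which of them was used. The *Rhox10* window held a SOX core alone, and the *Rhox1* and *Rhox13* windows held no match. For *Rhox13* the RefSeq start lies 379 bases upstream of the GENCODE M21 start, so its window does not reach the latter. AGGTCA was found in 0 of the 4 windows. Over all 32851 promoter windows of this length, 6.91% held the ETS core, 9.42% the SOX core and 14.0% AGGTCA, so that these short matches are common. CpG dinucleotides, the targets of DNA methylation, numbered 8 in *Rhox10*, 4 in *Rhox5*, 4 in *Rhox13* and 0 in *Rhox1*, against a median of 6 over all windows. The matches are letters in a window and were not tested as binding sites.

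*Rhox5*, a homeobox gene of Sertoli cells, was at a low level in both groups. Its read counts were 73 and 99 in controls, against 48 and 74 in *Cnot3*-cKO cells, which is 1.81 and 2.35 CPM against 2.12 and 2.58 CPM. The groups overlapped, since *Cnot3*-cKO replicate 1 lay below control replicate 2. Means were 2.08 ± 0.382 CPM in controls, against 2.35 ± 0.328 CPM in *Cnot3*-cKO cells (SD, n = 2 per group), and the log2 fold change was 0.18 (standard error 0.33). Leaving out control replicate 1 turned this value to -0.01.

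*Rhox8*, the other Sertoli-type gene, was the scarcest member in controls. Its reads numbered 6 and 24 in controls and 49 and 45 in the shallower *Cnot3*-cKO libraries. On the CPM scale this was 0.149 and 0.570 against 2.16 and 1.57, and each *Cnot3*-cKO value exceeded each control value. The means were 0.359 ± 0.298 and 1.86 ± 0.418 CPM (SD, n = 2 per group). Their ratio was 5.19, and the fitted log2 fold change was 2.35 (standard error 0.60). The size of the difference depended on which control was used. The exact Poisson 95% intervals of the 2 controls, 0.0546 to 0.324 and 0.365 to 0.848 CPM, did not overlap, and leaving out control replicate 1 gave a log2 fold change of 1.68, whereas leaving out control replicate 2 gave 3.595. These intervals cover counting error alone. Of the controls 1 reached the level that the expression filter asks for (0.290 CPM before scaling), so *Rhox8* entered the test through its *Cnot3*-cKO libraries.

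*Rhox10*, the gene known from undifferentiated spermatogonia, was read 475 and 490 times in controls, against 154 and 247 times in *Cnot3*-cKO cells. Levels were 11.8 and 11.6 CPM in controls, against 6.79 and 8.61 CPM in *Cnot3*-cKO cells, and the groups did not overlap. The means of 11.7 ± 0.104 and 7.70 ± 1.29 CPM (SD, n = 2 per group) stood at a ratio of 0.658, with a log2 fold change of -0.60 (standard error 0.20). Leaving out 1 library at a time kept this value between -0.79 and -0.45.

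*Rhox13*, the gene known from spermatogonia answering retinoic acid, had 420 and 705 reads in controls, against 167 and 262 in *Cnot3*-cKO libraries. Its levels were 10.4 and 16.7 CPM against 7.36 and 9.14 CPM, and the groups were again apart, although the controls differed more from each other than did the *Cnot3*-cKO libraries. Means were 13.6 ± 4.47 and 8.25 ± 1.25 CPM (SD, n = 2 per group), and the log2 fold change was -0.72 (standard error 0.24). Without control replicate 2, the higher control, the log2 fold change was -0.34, and without control replicate 1 it was -1.03.

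*Rhox1*, a further homeobox gene of the cluster, was read 125 and 126 times in controls, against 27 and 82 times in *Cnot3*-cKO libraries. The controls were close together, at 3.10 and 2.99 CPM, whereas the *Cnot3*-cKO libraries were far apart, at 1.19 and 2.86 CPM. Means were 3.05 ± 0.0768 and 2.02 ± 1.18 CPM (SD, n = 2 per group), and the log2 fold change was -0.57 (standard error 0.38). It rested on *Cnot3*-cKO replicate 1, since it was -0.10 without that library and -1.36 without *Cnot3*-cKO replicate 2.

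**Figure D1:**
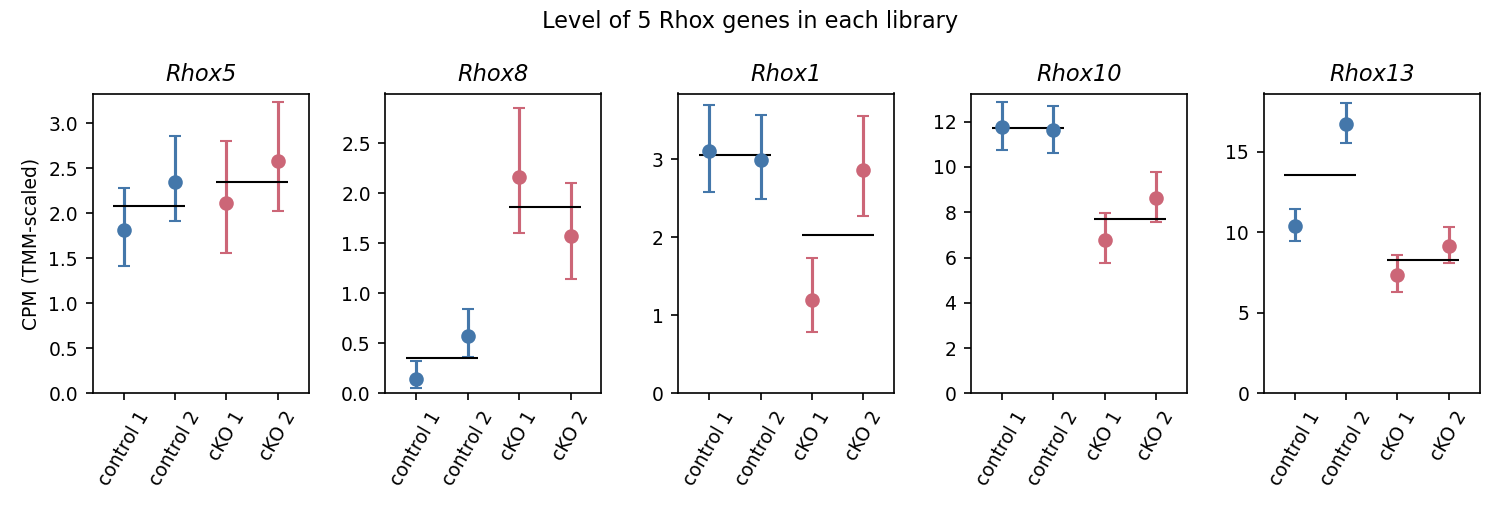
Each panel plots 1 *Rhox* gene, with its level in CPM on the vertical axis and the 4 libraries on the horizontal axis (blue, control; red, *Cnot3*-cKO). Points are libraries with exact Poisson 95% intervals and black lines are group means. *Rhox8* lies at 0.149 and 0.570 CPM in controls, against 2.16 and 1.57 CPM in *Cnot3*-cKO cells, *Rhox10* and *Rhox13* lie lower in both *Cnot3*-cKO libraries, and the groups overlap for *Rhox5*.

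Of the 5 members, 0 passed the rule for a called gene with edgeR, beside 4.76% of all tested genes. This count describes genes picked with these values known and is no test of them. It also depended on the fit, since *Rhox8* passed the rule with DESeq2, and in edgeR with the replicate number as a block or without an expression filter. *Rhox8* passed the default filter through its *Cnot3*-cKO libraries, where it is high, so nothing is read from its calls. In 1 member, *Rhox8*, the *Cnot3*-cKO values were both above the control values, as in 30.5% of all tested genes. In 3 members, *Rhox1*, *Rhox10* and *Rhox13*, they were both below, as in 28.6% of all tested genes. Because the members were chosen with this comparison known, nothing is read from these counts. With 2 libraries in each of 2 groups the smallest two-sided p of an exact permutation test is 0.333.

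Levels between genes were compared per kilobase of exon in GENCODE M21, whereas the reads were counted on GENCODE M24. The *Rhox5* exons used begin 50234 bases downstream of its RefSeq start, so its value per kilobase depends on this annotation. In controls *Rhox13* had 11.9 and 19.1 and *Rhox10* had 15.4 and 15.2 CPM per kilobase, so these germ-cell-type genes headed the order and did not differ beyond the spread of *Rhox13*. *Rhox1* followed with 3.51 and 3.39 and *Rhox5* with 2.40 and 3.12 CPM per kilobase, without overlap. *Rhox8* came last with 0.124 and 0.473 CPM per kilobase. In *Cnot3*-cKO cells *Rhox10* (8.90 and 11.3 CPM per kilobase) and *Rhox13* (8.40 and 10.4) still stood above the rest and overlapped. *Rhox5* (2.81 and 3.42), *Rhox1* (1.35 and 3.24) and *Rhox8* (1.79 and 1.30) formed the lower set, in which *Rhox1* overlapped both of the others. In both groups the germ-cell-type members were thus the more abundant *Rhox* transcripts of these sorted cells, and the Sertoli-type members were scarce.

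Each class was then set against the genes that mark its cell type, measured in the same libraries. Of 15 Sertoli cell markers, 14 were called higher and 1 was not called, and their median log2 fold change was 1.82 against 0.01 over all tested genes. They included *Clu*, the most abundant (log2 fold change 1.69), *Amh*, the hormone that removes the Müllerian ducts (2.62), and *Dhh*, the hedgehog ligand of Sertoli cells (2.39). *Rhox8*, at 2.35, lay inside the range of this list, which ran from -0.43 to 2.62, while *Rhox5*, at 0.18, lay below every gene of it but 1. That gene was *Tsx* (log2 fold change -0.43, standard error 0.66), which overlapped between groups and is also counted below among the androgen-dependent genes. The log2 ratio of *Rhox5* to the summed Sertoli cell markers was -8.02 and -7.66 in controls, against -9.42 and -9.14 in *Cnot3*-cKO libraries. This was a difference of -1.44 between group means, and the groups did not overlap. The summed markers rose from 468 and 474 CPM to 1450 and 1454 CPM. A gene of unchanged level would thus also give a lower ratio, and nothing is read from this separation. For *Rhox8* the same ratio was -11.6 and -9.70 in controls and -9.39 and -9.86 in *Cnot3*-cKO libraries, so that the groups overlapped. In bulk RNA a change in the number of cells of a type and a change in RNA per cell cannot be told apart. The part of Sertoli cell RNA in the *Rhox5* and *Rhox8* values was not tested.

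Other somatic cells of the testis were also represented. Of 5 tested Leydig cell markers 4 were called higher (median log2 fold change 1.35, with *Hsd3b1* at 1.35, *Lhcgr* at 1.57 and *Cyp17a1* at 1.49). Of 8 macrophage markers 7 were called higher (median 1.27, with *Mrc1* at 1.39, *C1qa* at 1.56 and *Cx3cr1* at 1.47), and of 4 tested endothelial markers 2 were, *Pecam1* (1.18) and *Kdr* (1.17), while *Tek*, the most abundant, had 0.48. Of 5 peritubular myoid cell markers 0 were called with edgeR or DESeq2 and 1 had an unadjusted p under 0.05 (median 0.33, with *Acta2* at 0.94 and *Des* at 0.73). Summed Leydig levels were 322 to 367 CPM in controls against 830 to 895 CPM in *Cnot3*-cKO libraries, and summed macrophage levels were 133 to 219 and 399 to 485 CPM. The part of these cells in the values of the *Rhox* genes was not tested.

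The germ-cell-type members were set against germ cell genes in the same way. The 12 tested genes common to all germ cells had a median log2 fold change of -0.12 (0.062 where these genes set the scale) and a range of -0.49 to 0.17. Among them were *Dazl*, the most abundant (-0.21), *Mov10l1* (-0.49) and *Piwil4* (-0.45). The values of *Rhox10* (-0.60, standard error 0.20) and *Rhox13* (-0.72, standard error 0.24) were lower than all of these. The gap of each to *Mov10l1* was smaller than its standard error. The log2 ratio of *Rhox10* to the summed germ cell genes was -8.94 and -9.06 in controls and -9.58 and -9.29 in *Cnot3*-cKO libraries, a difference of -0.43 without overlap. For *Rhox13* it was -9.12 and -8.54 in controls and -9.46 and -9.20 in *Cnot3*-cKO libraries, a difference of -0.50, again without overlap but by a narrow margin. In CPM, 28.6% of all tested genes had both *Cnot3*-cKO values below both controls. No such share was taken for these ratios, so nothing is read from their separation.

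Lists of spermatogonial stages differed from each other. Of 11 stem cell markers 2 were called higher, *Id4*, the gene behind the sort (log2 fold change 1.04), and *Eomes* (1.39), and 0 lower, while 4 more passed the limit on p but not the one on the fold. They were *Zbtb16*, the most abundant, at -0.82, and, named after their values were seen, *Gfra1* at 0.90, *Bcl6b* at 0.65 and *Etv5* at 0.54. Of 7 progenitor markers 5 were called lower, including *Lin28a*, the most abundant (-1.09), *Neurog3* (-1.81) and *Rarg* (-1.37), with a median of -1.09. Of 7 differentiating markers 4 were called lower, namely *Kit* (-1.05), *Stra8* (-1.22), *Dmrtb1* (-1.54) and *Prss50* (-1.92), with a median of -1.05. *Rhox10* and *Rhox13* thus had values between the median of the stem cell markers, 0.15, and those of the progenitor and differentiating markers. Both also lay inside the range of each list, -0.99 to 1.39 for stem cell, -1.81 to -0.21 for progenitor and -1.92 to -0.18 for differentiating markers.

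**Figure D2:**
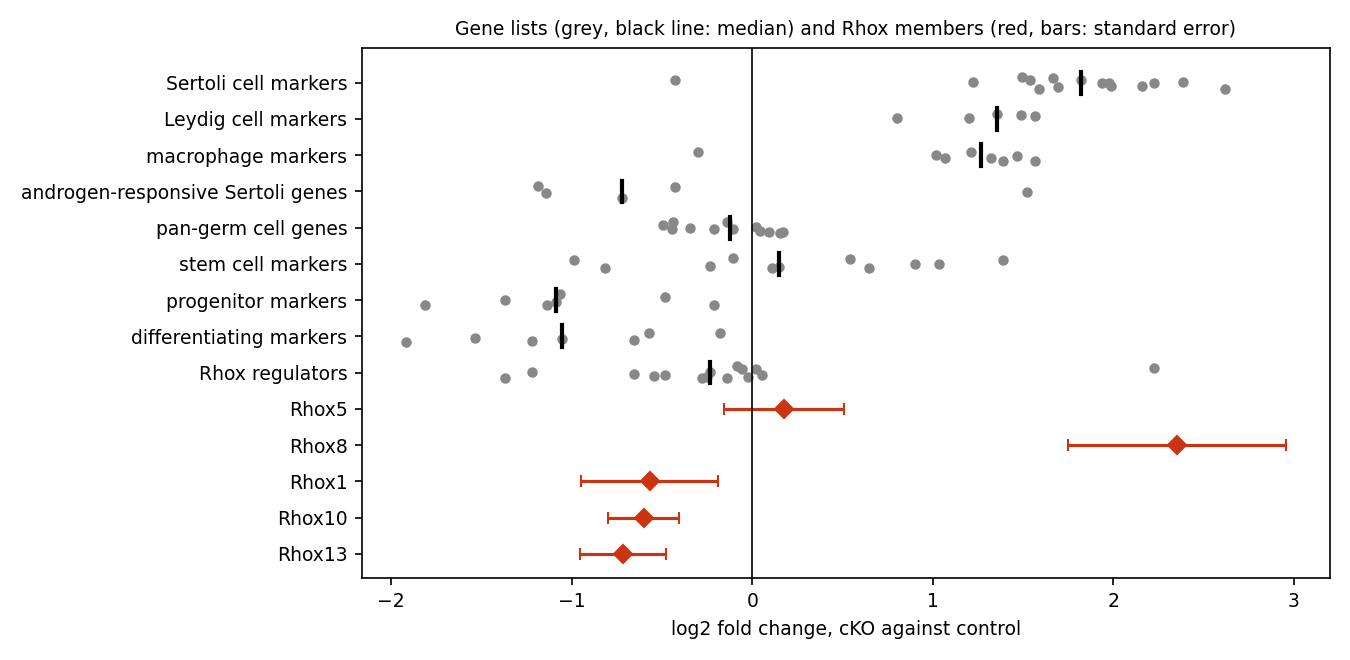
Log2 fold change of *Cnot3*-cKO against control (horizontal axis) for the tested genes of 9 lists and for the 5 *Rhox* members. Grey points are genes, black lines list medians and red diamonds members with their standard error. *Rhox8* (2.35) falls among the Sertoli cell markers and *Rhox5* (0.18) falls below all of them but 1. *Rhox10* (-0.60) and *Rhox13* (-0.72) fall between the medians of the pan-germ cell genes (-0.12) and the progenitor markers (-1.09). They lie inside the ranges of the stem cell (-0.99 to 1.39), progenitor (-1.81 to -0.21) and differentiating markers (-1.92 to -0.18) alike.

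**Figure D3:**
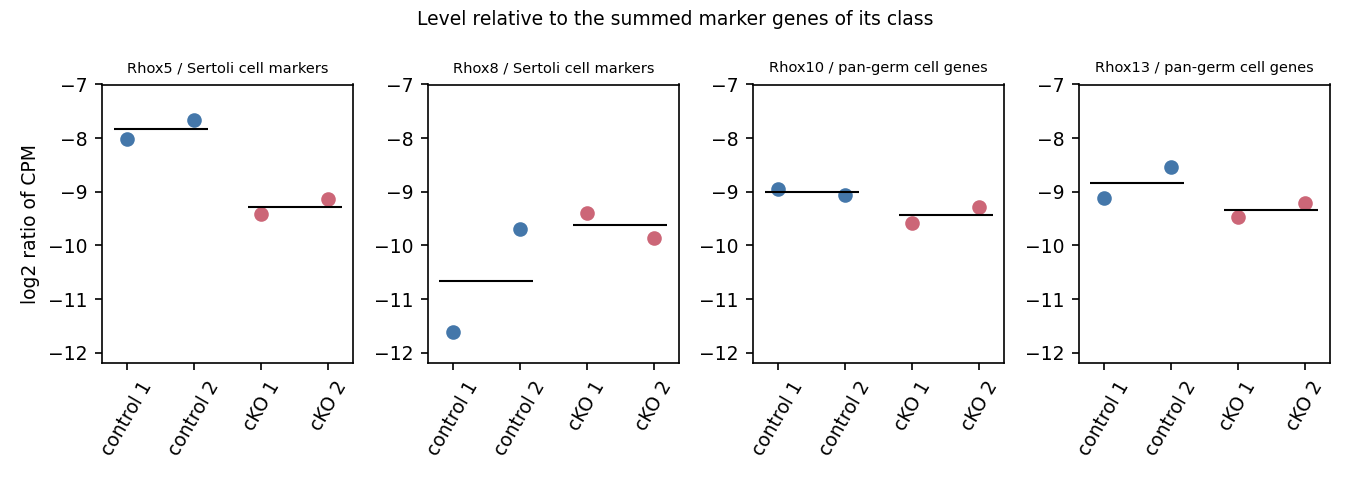
Log2 ratio of the CPM of a *Rhox* gene to the summed CPM of the marker genes of its class (vertical axis) in the 4 libraries (horizontal axis; blue, control; red, *Cnot3*-cKO; black lines, group means). *Rhox5* lies at -8.02 and -7.66 in controls and at -9.42 and -9.14 in *Cnot3*-cKO libraries, and the groups overlap for *Rhox8*. The summed Sertoli cell markers, the denominator of both, rose from 468 and 474 CPM to 1450 and 1454 CPM.

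The rest of the cluster, which the choice of members did not use, was tested with the same fit. Of the 37 other *Rhox* genes 33 had any read, 29 had more than 3 reads in some library and 18 passed the expression filter. With edgeR 0 of the 18 were called in either direction, beside 4.76% of all tested genes, and with DESeq2 0 were called as well. Unadjusted p values under 0.05 were found in 3 genes, all lower in *Cnot3*-cKO cells and all of them *Rhox2* copies. The share of all tested genes at this limit was not taken, so nothing is read from this count. At an edgeR adjusted p under 0.05 with no fold limit, 1 of the 18 was lower and 0 were higher. Among all 23952 tested genes 2659 were higher and 2266 lower at that limit. The median log2 fold change of the 18 was -0.51, against 0.01 over all tested genes, and the values ran from -1.27 to 1.92. The upper end was *Rhox4c*, which passed the expression filter through its *Cnot3*-cKO libraries alone, and the next highest was *Rhox9* at 0.73. The median leans on 8 *Rhox2* copies, all negative, which are not separate observations. Outside them the signs were mixed. The 3 tested *Rhox4* copies, *Rhox9* and *Rhox2-ps* were positive, *Rhox6* was negative, and of 4 *Rhox7* genes 3 were negative and 1 positive.

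The 8 *Rhox2* copies (*Rhox2a* to *Rhox2h*) made up the largest group of tested genes, and all 8 had a negative log2 fold change, from -1.27 to -0.40, as they did under each scaling tried. Without control replicate 2, or without *Cnot3*-cKO replicate 2, 6 of the 8 were negative. *Rhox2a* had 2.68 and 5.03 CPM in controls, against 1.76 and 1.71 CPM in *Cnot3*-cKO cells, a log2 fold change of -1.15 (standard error 0.35, edgeR adjusted p = 0.0360). It was called lower without control replicate 1 and without an expression filter. *Rhox2f* had 2.06 and 1.54 CPM against 0.794 and 0.697 CPM (log2 fold change -1.27, edgeR adjusted p = 0.0560), and *Rhox2d* had 2.78 and 2.83 CPM against 1.23 and 1.67 CPM (-0.94, edgeR adjusted p = 0.0697). The *Cnot3*-cKO values were both below the control values in 6 of the 8 copies, beside 28.6% of all tested genes. The exceptions were *Rhox2e* and *Rhox2g*. Since the copies share 44.7% to 100% of their stretches, reads may have been split between them or dropped, and the 8 values are not separate observations.

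In a fit chosen after these values were seen, the copies of each subfamily were summed into 1 row, pseudogenes included. The 9 *Rhox2* genes then held 496 and 640 reads in controls, against 195 and 204 in *Cnot3*-cKO libraries, or 12.3 and 15.2 CPM against 8.60 and 7.11 CPM. The log2 fold change was -0.81 (standard error 0.20, edgeR adjusted p = 0.0120), short of both limits for a call. These summed CPM levels overlapped those of *Rhox13* in both groups. The 4 *Rhox7* genes had 9.27 and 9.12 CPM against 8.68 and 7.01 CPM (log2 fold change -0.23, edgeR adjusted p = 0.482). The 8 *Rhox4* genes had 1.88 and 1.99 CPM against 2.95 and 3.31 CPM (0.69, edgeR adjusted p = 0.134), and the 9 *Rhox3* genes had 0.298 and 0.380 CPM against 0.617 and 0.593 CPM (0.83, edgeR adjusted p = 0.438).

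Single genes of these and the remaining subfamilies were thinly covered. *Rhox3* copies had at most 8 reads in a library, and 0 of them were tested, although *Rhox3b-ps*, *Rhox3c*, *Rhox3f* and *Rhox3h* passed 3 reads somewhere. *Rhox4a*, *Rhox4a2*, *Rhox4b*, *Rhox4d* and *Rhox4f* were likewise too low to be tested, and *Rhox4c* (0 and 9 reads in controls, 7 and 15 in *Cnot3*-cKO cells, log2 fold change 1.92, standard error 1.07), *Rhox4e* (0.12) and *Rhox4g* (0.56) were tested and not called. *Rhox7a* (0.12), *Rhox7b* (-0.62), *Rhox7-ps1* (-0.30), *Rhox7-ps2* (-0.34) and *Rhox2-ps* (0.65) were not called either. *Rhox6* and *Rhox9*, a related pair known from placenta and fetal germ cells, overlapped between groups. *Rhox6* had 15 and 19 reads in controls, against 0 and 12 in *Cnot3*-cKO libraries. In the library with 0 reads, the floor of 3 reads corresponded to 0.132 CPM. *Rhox9* had 8 and 20 against 6 and 24 reads. *Rhox11-ps2* and *Rhox12* had more than 3 reads in some library and were not tested.

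**Figure D4:**
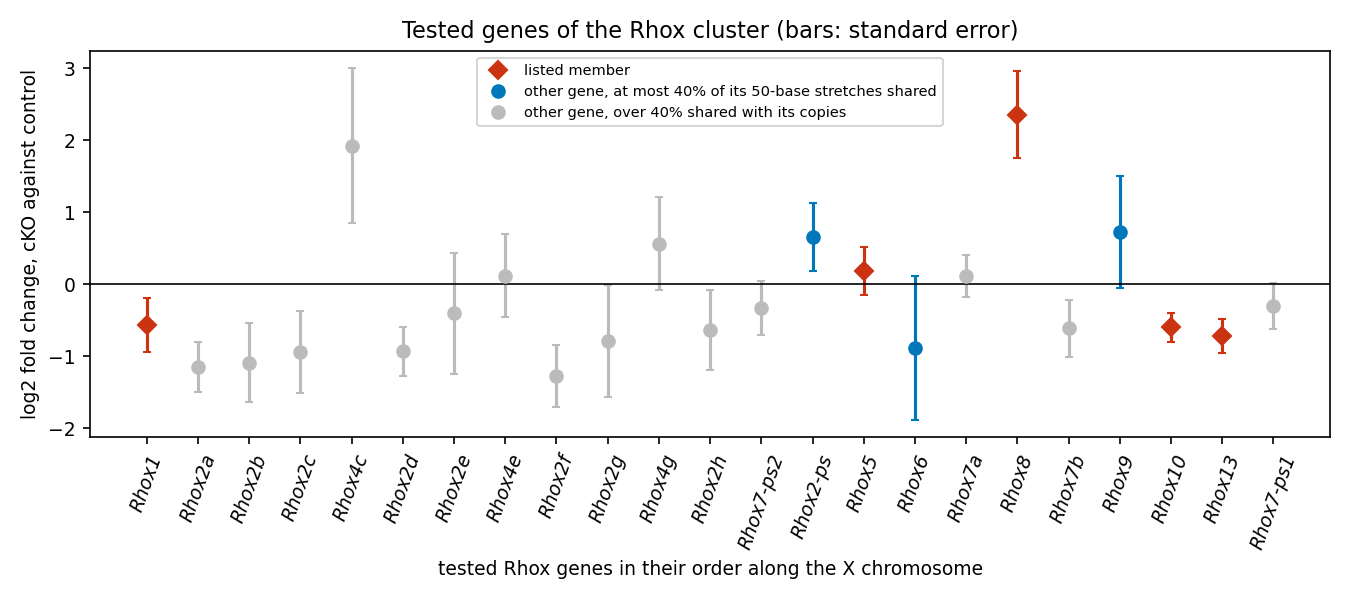
Log2 fold change of *Cnot3*-cKO against control (vertical axis, bars standard error) for the 23 tested *Rhox* genes in their order along the X chromosome. Red diamonds are the 5 listed members, grey points other genes with over 40% of their 50-base stretches shared, and blue points the other genes. The *Rhox2* copies all lie below 0 (-1.27 to -0.40) and *Rhox8* stands highest at 2.35.

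Genes around the cluster gave a local comparison. Of the 43 annotated genes other than *Rhox* genes within 500 kb of the cluster or inside it, 26 were tested and 0 were called with edgeR, while 11 had an unadjusted p under 0.05 with a higher level and 1 with a lower level. For the counts by unadjusted p, no share over all tested genes was taken. DESeq2 called 1, *6030498E09Rik*, higher. Their median log2 fold change was 0.34 against -0.51 for the 18 tested *Rhox* genes that were not members. The second median counts each of 8 *Rhox2* copies, which are not separate observations, and the signs outside them were mixed. *Cul4b*, the most abundant of the flanking genes, which encodes a ubiquitin ligase scaffold, had 0.23. The values furthest from 0 were those of *6030498E09Rik* (3.004, standard error 0.72, edgeR adjusted p = 0.0107) and *Zfp36l1-ps* (1.34, standard error 0.96). The *Cnot3*-cKO values were both above the control values in 16 of the 26 genes, beside 30.5% of all tested genes, and below them in 2.

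Among homeobox genes elsewhere in the genome, 33 of a list of 38 were tested, with 3 called higher and 2 lower and a median log2 fold change of 0.06. *Lhx8*, a LIM homeobox gene of germ cells, fell from 8.03 and 8.12 CPM to 2.20 and 2.58 CPM (log2 fold change -1.75, standard error 0.24, edgeR adjusted p = 3.86e-04). *Pou2f1*, the most abundant, had -0.60 (edgeR adjusted p = 0.00111), and *Irx5*, near the floor, had -1.68 (standard error 1.06). Named after their values were seen, the 3 called higher were *Meis1* (1.58), *Zeb2* (1.55) and *Tgif1* (1.01). Besides *Lhx8*, *Six4* (-1.02) was called lower.

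Factors reported to regulate *Rhox* genes were mostly not called. Of 15 tested regulators 1 was called higher, 2 lower and 12 neither, with a median log2 fold change of -0.24. *Sox9*, the Sertoli cell transcription factor reported upstream of *Rhox8*, rose from 3.79 and 3.63 CPM to 18.7 and 16.1 CPM (log2 fold change 2.23, standard error 0.20, edgeR adjusted p = 1.57e-05), and it is a Sertoli cell marker as well. *Gabpa*, a subunit of the ETS-family factor GABP, had 0.05, and *Gabpb1*, its partner, had -0.28.

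Among the genes tied to retinoic acid, 2 were called lower. *Rarg*, the receptor of undifferentiated spermatogonia, fell from 39.0 and 42.6 CPM to 15.7 and 15.9 CPM (log2 fold change -1.37, standard error 0.13, edgeR adjusted p = 3.14e-05). *Stra8*, a target induced by retinoic acid as *Rhox13* is, fell from 87.0 and 113 CPM to 37.6 and 48.2 CPM (log2 fold change -1.22, standard error 0.14, edgeR adjusted p = 1.30e-04). *Rara* had -0.25 and *Nanos2*, an RNA-binding repressor of differentiation, had -0.24, and neither was called. Genes of DNA methylation and silent chromatin, which keep *Rhox* genes off in many tissues, were not called. They were *Dnmt1* (-0.02), *Dnmt3a* (-0.14), *Dnmt3b* (-0.66), *Dnmt3l* (-0.48), *Uhrf1* (-0.06), *Setdb1* (0.02) and *Ehmt2* (-0.54). Of these *Dnmt3b* (edgeR adjusted p = 3.62e-04) and *Ehmt2* (edgeR adjusted p = 0.00314) passed the limit on p but not the one on the fold.

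Genes that depend on androgen in Sertoli cells, the company in which *Rhox5* is best known, were divided. Of 6 such genes 5 were tested, with 1 called higher and 1 lower, and their median log2 fold change was -0.72. *Tubb3*, a neuronal-type tubulin also made by Sertoli cells, rose by 1.52 (edgeR adjusted p = 9.68e-04). *Clmn*, which encodes the actin-binding protein calmin, fell by 1.14 on the log2 scale (edgeR adjusted p = 0.00194). *Eppin*, a protease inhibitor, had 3.72 and 2.90 CPM against 2.03 and 1.99 CPM (log2 fold change -0.72, edgeR adjusted p = 0.121), and *Cldn3*, a tight junction protein, had 0.942 and 1.04 CPM against 0.529 and 0.349 CPM (-1.19, edgeR adjusted p = 0.168). *Drd4* was too low to be tested.

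Genes reported as targets of RHOX5 or RHOX10 gave 0 calls with edgeR or DESeq2 among 3 tested, of which 2 had an unadjusted p under 0.05, both lower. *Dmrt1*, reported downstream of RHOX10, had 374 and 441 CPM in controls, against 309 and 328 CPM in *Cnot3*-cKO cells (log2 fold change -0.36, edgeR adjusted p = 0.0153). *Zbtb16*, which encodes PLZF and is also linked to RHOX10, had 435 and 364 CPM against 242 and 211 CPM. Its log2 fold change of -0.82 (edgeR adjusted p = 1.93e-04) passed the limit on p but not the one on the fold. *Unc5c*, a netrin receptor reported to be repressed by RHOX5, had 0.769 and 0.878 CPM against 1.68 and 0.942 CPM (log2 fold change 0.65, edgeR adjusted p = 0.402). *Ins2*, reported to be induced by RHOX5, was too low to be tested.

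The genes with the most similar profile over the 4 libraries, by Euclidean distance between centred log2 CPM values among 15510 genes averaging a log2 CPM of 1 or more, were listed for each member as a description. They were *Tnfrsf11b*, *Etd* and *Sardh* for *Rhox8* (distances 0.63, 0.85 and 0.93), the largest distances found for any member. For *Rhox5* they were *Ring1*, *Mief2* and *Matk* (0.022, 0.030 and 0.033). For *Rhox10* they were *Morf4l1*, *Fntb* and *Gm17484* (0.048, 0.050 and 0.057), for *Rhox13* they were *Wnt9a*, *Bola2* and *C1ql1* (0.020, 0.039 and 0.053), and for *Rhox1* they were *Gm15609*, *Gm4356* and *Ephb3* (0.18, 0.19 and 0.20). With 4 libraries many genes lie close to any profile.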

How the data were processed

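RNA-seq libraries of ID4-EGFP+ cells from 2 control and 2 *Cnot3*-cKO samples were analysed. The authors kept reads of sufficient mean Phred quality, aligned them to mm10 with STAR and deposited raw counts per gene, made with featureCounts on GENCODE M24. Settings for strand and for reads matching several genes are not given in the sources used here, which matters for the *Rhox2*, *Rhox3*, *Rhox4* and *Rhox7* copies. Exon lengths and coordinates came from GENCODE M21 on GRCm38, which held all 42 *Rhox* symbols.

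Counts were compared with edgeR 4.0.16 in R 4.3.3, using TMM scaling, its default expression filter (minimum count 10) and the quasi-likelihood test without covariates, with Benjamini-Hochberg adjustment over 23952 genes. The study used DESeq2, which is an alternative here (version 1.42.0). Profile distances used log2 CPM with 0.5 reads added. Members, gene lists and tests were chosen with earlier results of these data known. Genes were named by rule: *Cnot3*, every *Rhox* gene with more than 3 reads in a library, all tested regulators (except 1 counted in its list and not reported here), androgen-responsive genes and targets, and in each other list the most abundant gene and the 2 with the largest change. Alternatives were other scalings, filters, DESeq2, a replicate block and leaving out each library. Figures were drawn with matplotlib 3.10.9 in Python 3.11.15.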

Additional observations from a re-analysis of the deposited data

How the results depend on the processing

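Of the 5 members, each kept its direction under every scaling, filter and tool tried, and *Rhox8* had no value under a mean count of at least 50. Leaving out 1 library gave ranges of -0.01 to 0.37 for *Rhox5*, 1.68 to 3.595 for *Rhox8*, -1.36 to -0.10 for *Rhox1*, -0.79 to -0.45 for *Rhox10* and -1.03 to -0.34 for *Rhox13*. The replicate numbers pair libraries by number alone (correlation of deviations 0.0827 over 15514 genes). With the replicate block the members had 0.18 (*Rhox5*), 2.47 (*Rhox8*), -0.66 (*Rhox1*), -0.61 (*Rhox10*) and -0.69 (*Rhox13*). In that fit *Cnot3* had -1.47, and 1155 genes were called higher and 217 lower.

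Scaling to pan-germ cell genes put the median over all tested genes at 0.19. It left 78 genes lower and gave medians of 2.001 (Sertoli cell markers), 0.062 (pan-germ cell genes), -0.91 (progenitor markers), 1.53 (Leydig cell markers), 1.004 (endothelial cell markers), -0.0523 (regulators), -0.17 (reported targets), 0.24 (other homeobox genes) and 0.52 (flanking genes). Library size only gave -1.02 (progenitor markers), -0.17 (regulators) and 0.40 (flanking genes). No expression filter gave 285 genes lower, 1 other *Rhox* gene lower (*Rhox2a*) and medians of 1.14 (endothelial), 0.12 (reported targets, with *Ins2* entering) and 0.41 (flanking). A mean count of at least 50 gave 1.91 (Sertoli), 0.76 (peritubular myoid) and -0.56 (reported targets). An adjusted p under 0.05 with no fold limit gave 2659 genes higher, 2266 lower and 1 other *Rhox* gene lower. The same limit on p with a fold above 2, added after the data were seen, also gave 1 other *Rhox* gene lower. *Rhox8* passed the rule for a call with DESeq2, without an expression filter and with the block. It was picked with these values known and passed the default filter through its *Cnot3*-cKO libraries, so these calls are no test of it. Leaving out 1 library gave 217 to 271 genes lower (271 without *Cnot3*-cKO replicate 2), 0 to 1 other *Rhox* genes lower and medians of 1.72 to 1.84 (Sertoli), -0.275 to -0.0556 (pan-germ), 0.16 to 0.70 (myoid), 0.73 to 1.08 (endothelial), -0.21 to -0.11 (regulators), -0.998 to -0.252 (androgen-responsive), -0.0742 to 0.150 (other homeobox) and 0.26 to 0.37 (flanking). Apart from filters, which change the genes entering, the cause was not tested. The log2 ratios of members to their markers moved by less than the spread between libraries without the most abundant marker. *Rhox8* had 6 and 24 reads in controls, and its values there differed by more than counting error.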
